A study of Bos taurus with 8 samples.

Results

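Maternal mRNA storage and translational repression factors are the proteins that keep the transcripts of the egg stable and untranslated until they are needed. The group was given as a list of 10 genes: EIF4E1B, EIF4ENIF1, ZAR1, ZAR1L, YBX2, CPEB1, DAZL, DDX6, LSM14B and PATL2. All 10 were found by symbol among the 16606 genes of the deposited table. Each had a mean of at least 1 CPM (reads scaled to a nearly common library total) over the 8 libraries, the level required for testing. The libraries come from bovine embryos produced by fertilisation in vitro, each from a pool of 5 embryos, with 2 libraries in each of 4 groups. The groups were control embryos at the 4-cell stage, embryos edited in RPL12 (the change is written A148G in the series' design text, with no word on whether a base or a residue is meant) at the 4-cell stage, control embryos at the 8-cell stage and edited embryos at the 8-cell stage. Edited embryos had received PEmax, a prime editor that joins a Cas9 nickase to a reverse transcriptase, with a guide RNA, by injection into the cytoplasm of the zygote, whereas the sample titles call them base edited. Stages follow the titles. For the samples titled as 4-cell embryos the source name and cell type fields read oocytes, so what the 4-cell and stage comparisons mean rests on the titles and the design text. Nothing in the labels tells whether controls received an injection, what share of alleles carried the edit, or whether the 2 libraries of a group came from separate fertilisations, so p-values measure the spread between these libraries, which may be technical.

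A growing oocyte makes far more mRNA than it translates. The stored mRNA is packed by Y-box proteins such as YBX2 and by ZAR1 and ZAR1L. CPEB1, which recognises a U-rich element in the tail end of the message, keeps many of these messages repressed together with the cap-binding protein EIF4E1B, its partner EIF4ENIF1, the helicase DDX6 and the DDX6 partners of the LSM14 and PAT1 families. During maturation and the first cleavages the repression is lifted, messages gain or lose their poly(A) tails, and the maternal store is degraded as the embryo's own genome is switched on, which in cattle takes place around the 8-cell stage.

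RPL12, the edited gene, stood at 159 and 174 CPM in the 4-cell control libraries and at 27.5 and 33.6 CPM in the 4-cell edited ones, and at 96.3 and 97.6 against 14.1 and 11.9 CPM at the 8-cell stage. Between 33527531 and 35122409 reads were recovered per library. The least abundant member, LSM14B, had at least 72 reads in each library, and YBX2 at least 164. Of 21 oocyte markers, 20 were in the table, and each had over 3 reads in every library. Of the 8-cell activation markers ZSCAN4 and DUXA rose between the stages in both conditions, by 1.97 and 2.07 on the log2 scale in controls and by 3.20 and 2.62 in edited embryos (limma adjusted p-values 0.0356, 0.0193, 0.00592 and 0.00751). Of the other 3 measured, KLF17 rose in controls (1.79) and had 1.105 in edited embryos without passing. KLF4 had 0.95 in controls and -0.87 in edited embryos, and EIF1AX -0.54 and -0.13, none of which passed.

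The libraries also differed in genes listed as markers of other cell types, whose source in these pools was not tested. The 19 cumulus and granulosa markers summed to between 1146 and 1527 CPM in 4-cell control libraries, 482 to 504 CPM in 4-cell edited, 603 to 767 CPM in 8-cell control and 482 to 507 CPM in 8-cell edited libraries. Of the 17 of these that could be tested, 10 were called lower and 2 higher in edited embryos at the 4-cell stage, and 3 lower at the 8-cell stage. The defining markers AMHR2 and FOXL2 were each at 0 reads in 4 libraries and never above 21 and 16 reads, and TNFAIP6 was at 0 in the first edited library of each stage. The 9 stromal markers summed to between 4730 and 7780 CPM in 4-cell control and 1517 to 2195 CPM in 4-cell edited libraries. In 8-cell libraries they summed to 3310 to 3729 CPM in controls and 269 to 892 CPM in edited embryos. LUM was the most abundant, at 2878 and 5965 CPM in 4-cell and 3052 and 2449 CPM in 8-cell controls. The collagens were lower in controls, COL1A1 at 1.03 to 3.36, COL3A1 at 5.49 to 11.2 and COL1A2 at 18.0 to 70.4 CPM. COL3A1 was at 0 reads in both 8-cell edited libraries. The 4 immune markers in the table summed to between 6.25 and 17.2 CPM. Of the 20 oocyte markers, 6 were called higher, 1 lower and 13 neither in edited embryos at the 4-cell stage, and 3 were called higher at the 8-cell stage. Together they summed to between 20842 and 27352 CPM in 4-cell control libraries and to between 38224 and 57059 CPM in the other 6, of which the deadenylation adaptor BTG4 took the larger part. In pooled embryos, fewer cells of a type and less RNA per cell cannot be told apart, and the part of these differences in the results below was not tested beyond the alternative models given with them.

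**Figure D1:**
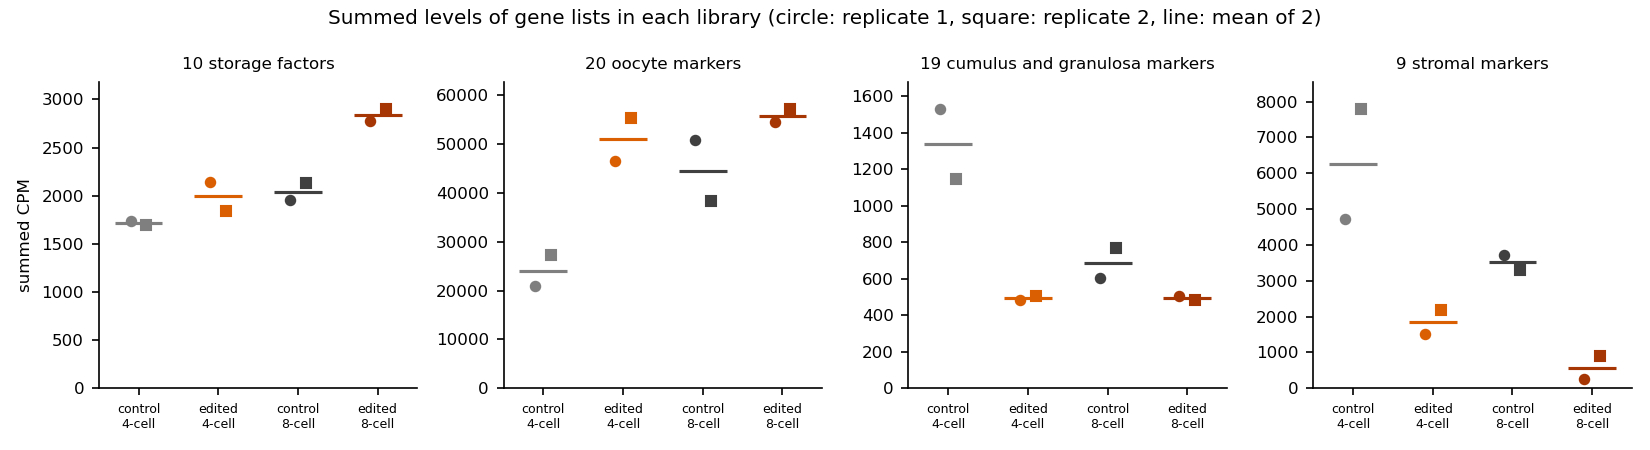
Summed CPM of the 10 storage factors and of the oocyte, cumulus and granulosa, and stromal marker lists in each library (points; the line is the mean of 2 libraries). The storage factors lie between 1694 and 1739 CPM in 4-cell controls and between 2775 and 2897 CPM in 8-cell edited embryos. ZAR1L takes the largest part of this sum, with means of 858 and 1273 CPM in these groups, followed by CPEB1 (395 and 579 CPM) and EIF4E1B (201 and 530 CPM). Cumulus and stromal sums are highest in the 4-cell controls.

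Edited and control embryos were compared at the 4-cell stage first. Of the 10 storage factors, 5 rose in edited embryos and none fell. The risers were DAZL, PATL2, EIF4ENIF1, ZAR1 and EIF4E1B, by 0.60 to 1.83 on the log2(CPM + 1) scale. Over all 12129 genes tested, 18.9% were called higher and 25.8% lower in this comparison by limma at an adjusted p-value under 0.05. The median log2 fold change was 0.55 over the 10 members, 0.50 over the 20 oocyte markers and -0.02 over all genes tested. Edited and control libraries did not overlap for the 5 risers, and for LSM14B and ZAR1L, which were lower in both edited libraries. Groups that do not overlap are common here, with 33.5% of all tested genes higher and 37.5% lower in this sense.

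EIF4E1B, an oocyte form of the cap-binding protein eIF4E that binds the cap weakly and sits in CPEB1 repressor complexes, stood at 211 and 191 CPM in the 4-cell control libraries and at 332 and 279.6 CPM in the edited ones. Later, at the 8-cell stage, it stood at 226 and 319 CPM in controls and at 521 and 539 CPM in edited embryos. Both edited libraries were above both controls at each stage, and the 8-cell edited libraries were the highest of the 8. The log2 fold change was 0.60 (SE 0.221, limma adjusted p-value 0.0361) at the 4-cell stage and 0.98 (SE 0.221, limma adjusted p-value 0.00510) at the 8-cell stage. EIF4E1B was the only member called at both stages, but its 4-cell call was lost in 8 of the 14 alternatives. Its 8-cell call was lost in 4 of 14.

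EIF4ENIF1, also known as 4E-T, is the protein that carries eIF4E into the nucleus and holds it on repressed messages. It stood at 85.7 and 93.6 CPM in 4-cell controls and at 206 and 133 CPM in 4-cell edited embryos. The log2 fold change was 0.88 (SE 0.243, limma adjusted p-value 0.00776). The 8-cell libraries lay close together, at 159.7 and 153 CPM in controls and 150.3 and 189 CPM in edited embryos, with a log2 fold change of 0.11 (95% interval -0.41 to 0.62, adjusted p-value 0.815 by limma). The 4-cell controls were thus the low libraries for this gene, and the other 6 overlapped.

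ZAR1, whose loss in female mice arrests their zygotes, stood at 80.5 and 54.2 CPM in 4-cell controls and at 119.9 and 99.4 CPM in edited embryos. The 8-cell values were 58.1 and 72.3 CPM in controls and 113 and 97.5 CPM in edited embryos. All 4 edited libraries were above all 4 control libraries, and the share of all tested genes with this order was not computed. The log2 fold changes were nearly equal, 0.72 (SE 0.254, limma adjusted p-value 0.0306) and 0.69 (SE 0.254, limma adjusted p-value 0.0846), and only the first passed. That 4-cell call was lost in 5 of 14 alternatives, and the 8-cell value passed in 1 of 14. In the RefSeq annotation ZAR1 overlaps FRYL, which stood at 54.0 to 180.0 CPM over the 8 libraries and rose at the 4-cell stage too (log2 fold change 1.12, limma adjusted p-value 0.00346). Whether the authors' counting used strand is not given in the sources used here, so reads of the 2 genes may not have been told apart.

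ZAR1L, the paralogue of ZAR1, did not follow it at the 4-cell stage. It stood at 873 and 842 CPM in controls and at 800.2 and 756 CPM in edited embryos, slightly lower in both, with a log2 fold change of -0.14 (95% interval -0.56 to 0.28, adjusted p-value 0.594 by limma). The order was the opposite at the 8-cell stage, with 966 and 995 CPM in controls and 1218 and 1327 CPM in edited embryos, a log2 fold change of 0.37 (95% interval -0.04 to 0.79, adjusted p-value 0.240 by limma). ZAR1L overlaps FRY in the annotation, which stood at 25.9 to 90.0 CPM and rose at the 4-cell stage (log2 fold change 1.15, limma adjusted p-value 0.00366).

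YBX2, the germ-cell Y-box protein that packages and stabilises stored mRNA, stood at 7.79 and 5.28 CPM in 4-cell controls and at 10.8 and 4.80 CPM in edited embryos. The 8-cell values were 8.72 and 8.01 CPM for controls against 15.1 and 10.6 CPM for edited embryos. The 4-cell edited libraries enclosed the controls, and the 8-cell edited libraries lay above theirs. Neither log2 fold change passed, at 0.16 (95% interval -0.69 to 1.001) and 0.55 (95% interval -0.30 to 1.39), and both intervals are wide.

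CPEB1, the reader of the cytoplasmic polyadenylation element, stood at 397 and 394 CPM in 4-cell controls and at 498 and 374 CPM in edited embryos, which enclosed the controls. The 8-cell values were 375 and 458 CPM in controls and, higher in both libraries, 592 and 566 CPM in edited embryos. The log2 fold changes were 0.13 (95% interval -0.33 to 0.58, adjusted p-value 0.667 by limma) and 0.48 (95% interval 0.03 to 0.93, adjusted p-value 0.160 by limma).

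DAZL, a germ-cell RNA-binding protein that promotes translation of its targets by recruiting poly(A)-binding protein, had the widest range of the 10, at 4.80-fold between its lowest and highest library. It stood at 14.6 and 18.6 CPM in 4-cell controls and at 70.3 and 53.4 CPM in 4-cell edited embryos. Its log2 fold change was 1.83, with a standard error of 0.365 and an adjusted p-value of 0.000795 by limma. The 2 control libraries disagreed at the 8-cell stage, at 37.9 and 15.5 CPM, and the edited ones stood at 43.8 and 29.3 CPM, so the groups overlapped. The log2 fold change there was 0.54 (95% interval -0.23 to 1.32, adjusted p-value 0.375 by limma).

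DDX6, the helicase of P-bodies that represses messages and links them to decapping, stood at 45.3 and 68.7 CPM in 4-cell controls and at 64.2 and 98.4 CPM in edited embryos. The 8-cell values were 90.2 and 74.2 CPM for controls against 86.3 and 107 CPM for edited embryos. The groups overlapped at both stages. The log2 fold changes were 0.50 (95% interval -0.09 to 1.09, adjusted p-value 0.155 by limma) and 0.23 (95% interval -0.36 to 0.82, adjusted p-value 0.642 by limma).

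LSM14B, an oocyte partner of DDX6, stood at 4.84 and 3.46 CPM in 4-cell controls and at 2.08 and 2.78 CPM in edited embryos. Its 8-cell values were 3.46 and 2.39 CPM for controls against 2.90 and 3.14 CPM for edited embryos, which overlapped. The log2 fold changes were -0.58 (95% interval -1.39 to 0.23, adjusted p-value 0.232 by limma) and 0.05 (95% interval -0.76 to 0.85, adjusted p-value 0.955 by limma).

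PATL2, the oocyte paralogue of the decapping activator PATL1 and a repressor of stored mRNA, stood at 19.9 and 22.9 CPM in 4-cell controls and at 40.3 and 42.2 CPM in 4-cell edited embryos. The log2 fold change was 0.92 (SE 0.273, limma adjusted p-value 0.0121). In the 8-cell libraries controls stood at 26.7 and 35.4 CPM and edited embryos at 32.0 and 28.1 CPM, inside the control range, with a log2 fold change of -0.04 (95% interval -0.62 to 0.54, adjusted p-value 0.951 by limma).

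**Figure D2:**
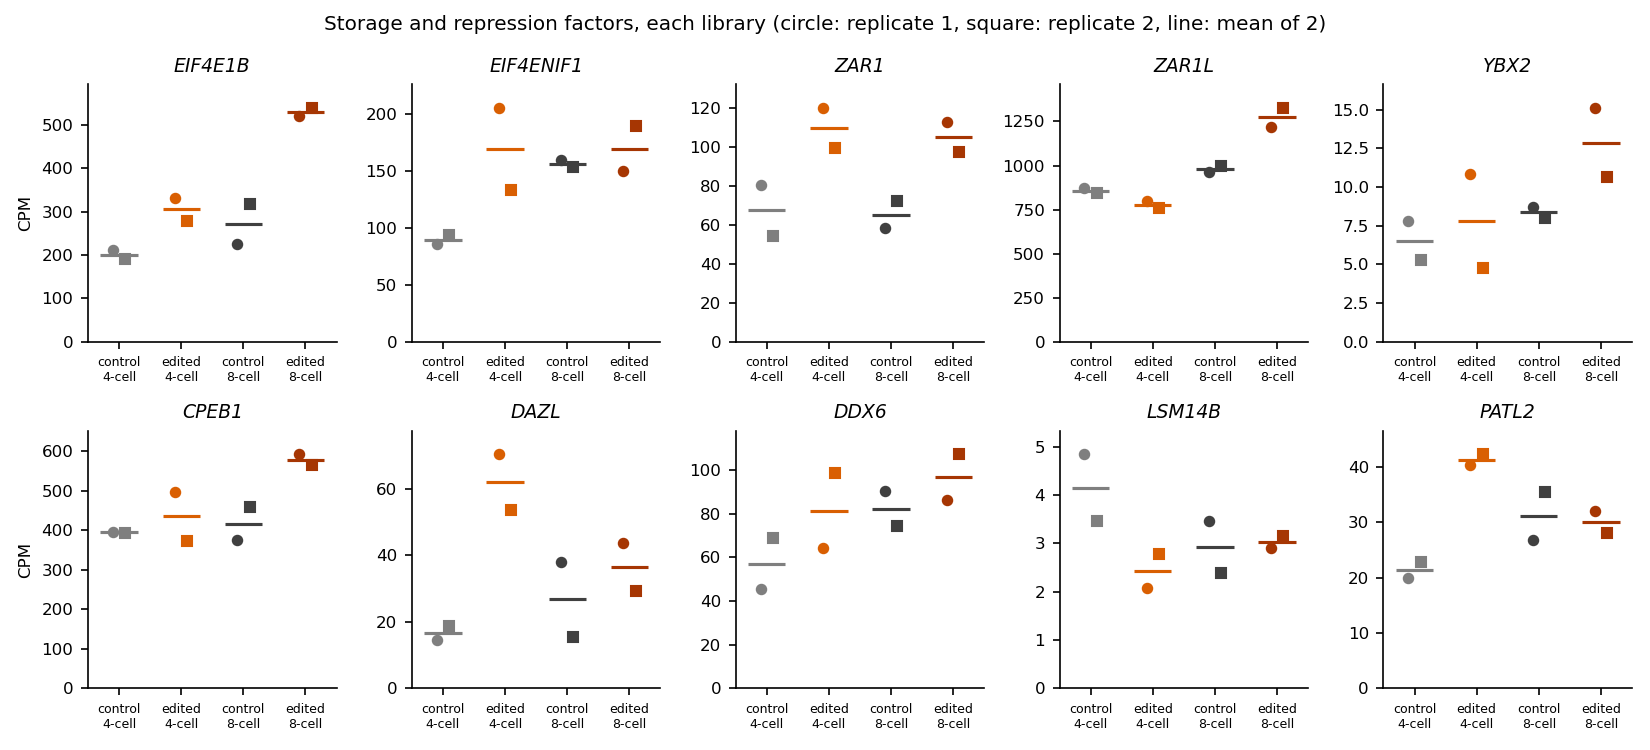
CPM of each of the 10 genes in the 8 libraries, 1 panel per gene with its own vertical axis from 0 (points are libraries, lines are means of 2). DAZL and PATL2 are highest in the 4-cell edited libraries, whereas EIF4E1B, ZAR1L and CPEB1 are highest in the 8-cell edited libraries.

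The 4-cell calls differed in how far they depended on a single library. DAZL passed without any 1 of the 4 libraries (limma adjusted p-values 0.00115 to 0.0221). PATL2 did not pass without the first control library (0.0628). EIF4ENIF1 did not pass without the first edited library (0.108). ZAR1 did not pass without the second control (0.207) or the first edited library (0.167). EIF4E1B failed without the second control (0.0981), the first edited (0.186) or the second edited library (0.0512). DDX6, in contrast, passed once the second control library was left out (log2 fold change 0.80, adjusted p-value 0.0393).

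At the 8-cell stage only EIF4E1B was called among the 10, where 1.08% of all tested genes were called higher and 14.5% lower. The members' median log2 fold change was 0.43, against 0.44 over the 20 oocyte markers and 0.00 over all genes tested. Besides EIF4E1B, both edited libraries were above both controls for ZAR1, ZAR1L, YBX2 and CPEB1, as for 27.7% of all tested genes, and no member was lower in both, as were 32.7%. The EIF4E1B call was lost without the first 8-cell control library (log2 fold change 0.73, limma adjusted p-value 0.0826) and without the second 8-cell edited library (log2 fold change 0.95, limma adjusted p-value 0.0552). Without the first control library DAZL passed (log2 fold change 1.16, adjusted p-value 0.0486).

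None of the 10 members passed limma's test of the difference between the editing effects at the 2 stages, where 3.96% of all tested genes were called, 1.95% in the positive and 2% in the negative direction. DAZL, PATL2 and EIF4ENIF1 had unadjusted p-values under 0.05 in it, as had 2800 of the 12129 genes tested. By edgeR and by DESeq2 none of the 10 was called either, and 3 members were under 0.05 before adjustment. The 8-cell log2 fold change minus the 4-cell one was -1.29 for DAZL, -0.96 for PATL2 and -0.77 for EIF4ENIF1, with standard errors of 0.516, 0.386 and 0.343 and limma adjusted p-values of 0.147, 0.150 and 0.192. DAZL passed when the second 8-cell control library was left out (difference -1.91, adjusted p-value 0.0327). The difference was positive for 5 members, LSM14B (0.63), ZAR1L (0.52), YBX2 (0.39), EIF4E1B (0.38) and CPEB1 (0.36), with adjusted p-values of 0.513, 0.279, 0.720, 0.497 and 0.510 by limma. A difference in the editing effect between stages was thus not shown for any member with all 8 libraries.

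The stages were then compared within each condition. These comparisons use the same libraries as those above. In control embryos no member was called between the 4-cell and the 8-cell stage by limma or by edgeR. Of all tested genes limma called 9.02% (2.75% higher, 6.27% lower). Before adjustment 3568 of the 12129 genes tested had a limma p-value under 0.05, and 1 member, EIF4ENIF1. Its log2 fold change was 0.80 (SE 0.243, limma adjusted p-value 0.0508), and it passed by DESeq2 (0.0436) and without the second 4-cell control library (0.0413). The 8-cell control libraries were both above the 4-cell ones for 6 members, DDX6, EIF4E1B, EIF4ENIF1, PATL2, YBX2 and ZAR1L, and both below for none, against 28.4% and 30.8% of all tested genes. The members' median log2 fold change between stages in controls was 0.38, that of the 20 oocyte markers 0.48 and that of all genes tested 0.01. No member was called lower at the 8-cell stage in either condition, on a scale relative to the total mRNA. Of all tested genes 6.27% were called lower in controls and 3.73% in edited embryos. Relative to the oocyte markers, a scale described below, PATL2 and DAZL were called lower in edited embryos.

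In edited embryos EIF4E1B and ZAR1L rose between the stages, by 0.80 (SE 0.221) and 0.71 (SE 0.196) on the log2 scale, each with a limma adjusted p-value of 0.0482, where 5.18% of all tested genes were called, 1.45% higher and 3.73% lower. Both calls were lost when any 1 of the 4 edited libraries was left out (adjusted p-values 0.0777 to 0.321). CPEB1, EIF4E1B, LSM14B and ZAR1L were higher in both 8-cell than in both 4-cell edited libraries, as were 22.7% of all tested genes, and 30.2% were lower. PATL2 and DAZL had lower values in both 8-cell than in both 4-cell edited libraries, with log2 fold changes of -0.45 (95% interval -1.03 to 0.13) and -0.76 (95% interval -1.53 to 0.02), and neither passed. ZAR1 was level between stages in both conditions, at -0.03 (95% interval -0.57 to 0.51) in controls and -0.06 (95% interval -0.60 to 0.48) in edited embryos.

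**Figure D3:**
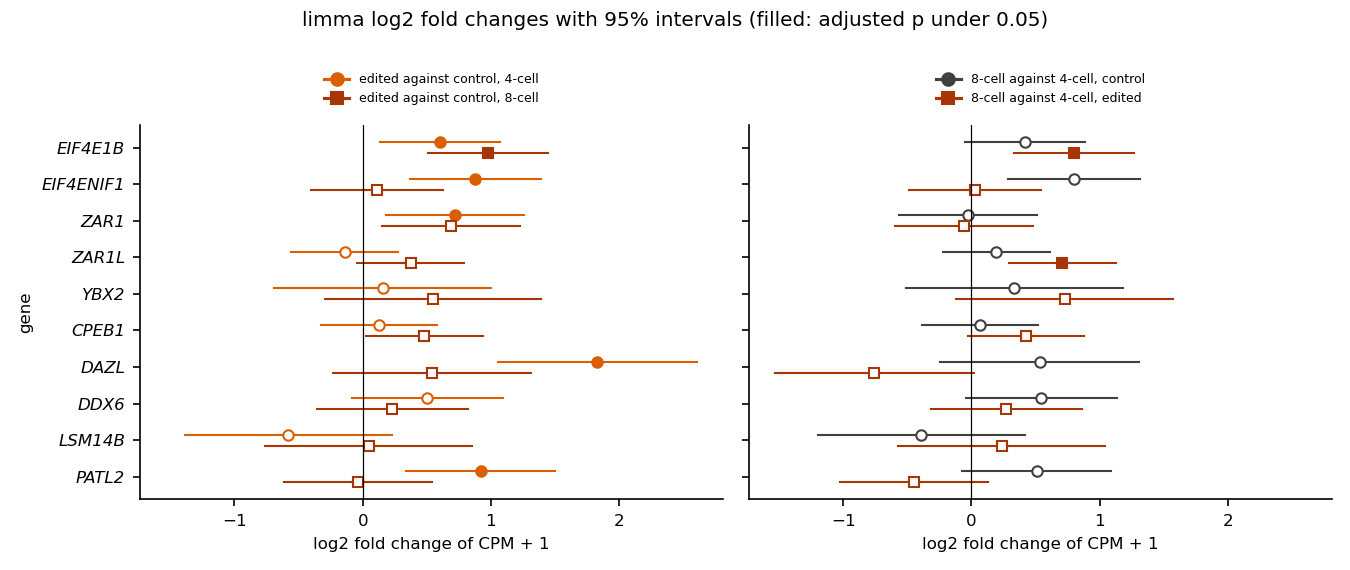
Log2 fold changes of CPM + 1 from limma with 95% intervals for the 10 genes, edited against control on the left and 8-cell against 4-cell on the right, filled where the adjusted p-value is under 0.05. At the 4-cell stage 5 genes are filled, at the 8-cell stage only EIF4E1B, and between stages only EIF4E1B and ZAR1L in edited embryos.

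The members were also set against other maternal transcripts. Each library was centred on the mean log2 level of the 20 oocyte markers, none of which is a member. This lowered the median change of all genes at the 4-cell stage from -0.02 to -0.46 and at the 8-cell stage from 0.00 to -0.49, and the share of higher genes among those called at the 4-cell stage from 42.2% to 17.2%. Relative to the oocyte markers only DAZL was higher in edited embryos at the 4-cell stage (log2 fold change 1.39, limma adjusted p-value 0.00638), and ZAR1L (-0.59, adjusted p-value 0.0496) and LSM14B (-1.03, adjusted p-value 0.0467) were lower. The other 4 risers were at 0.16 to 0.47 and did not pass. No member passed on this scale at the 8-cell stage, and EIF4E1B had a log2 fold change of 0.49 (adjusted p-value 0.145 by limma).

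With the mean log2 level of the cumulus and granulosa markers as a covariate no member was called at either stage. This mean itself differed between the groups, at 3.89 to 4.04 in 4-cell control and 2.74 to 3.03 in 4-cell edited libraries. In 8-cell libraries it was 3.20 to 3.77 in controls and 2.61 to 2.86 in edited embryos. The model called only 3 of all tested genes at the 4-cell stage and 114 at the 8-cell stage. The 4-cell log2 fold change of DAZL fell to 0.47 under it (adjusted p-value 0.858 by limma) and that of EIF4ENIF1 to 0.27, while those of PATL2, ZAR1 and EIF4E1B were 1.62, 0.85 and 0.98. The 8-cell value of EIF4E1B was 1.24 (adjusted p-value 0.240 by limma).

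**Figure D4:**
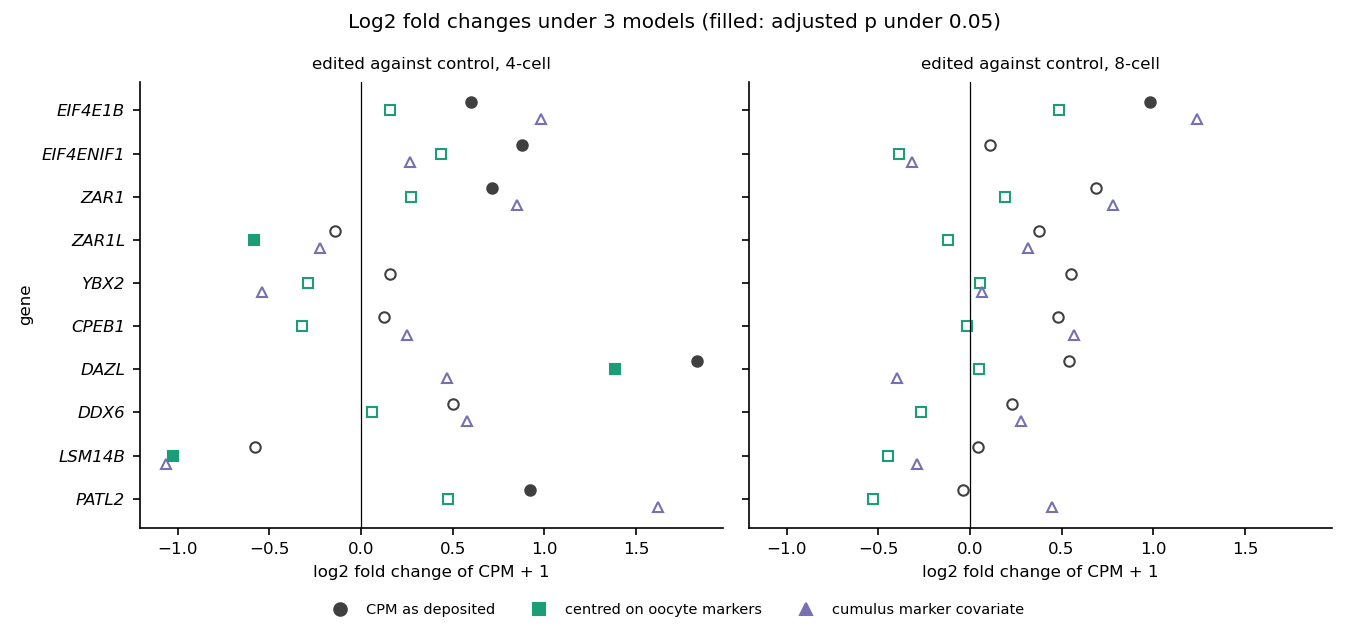
Log2 fold changes of edited against control embryos for the 10 genes at each stage under 3 models: CPM as deposited, libraries centred on oocyte markers, and a covariate of cumulus and granulosa markers (filled where the adjusted p-value is under 0.05). At the 4-cell stage DAZL is at 1.83, 1.39 and 0.47, and EIF4E1B at 0.60, 0.16 and 0.98.

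Within each library, 5 members were set against a paralogue that is also made in somatic cells, as a log2 ratio of CPM + 1. The library's scaling cancels in a plain ratio but, through the added 1 CPM, not fully in this one for weakly expressed genes such as YBX2 and LSM14B. YBX2 was higher relative to YBX1 in both edited libraries at the 8-cell stage, whereas its 4-cell order depended on the added 1 CPM. Its log2 ratio to YBX1 was -4.59 and -4.77 for 4-cell controls against -4.00 and -4.54 for edited embryos. Among 8-cell libraries it was -4.15 and -4.47 for controls against -3.40 and -3.60 for edited embryos. Averaged over the stages the ratio was higher in edited embryos by 0.61 (exact permutation test within stages, two-sided p-value 0.0556, adjusted over 5 ratios 0.278). This is the smallest p-value that the 36 arrangements allow, so no ratio could pass 0.05. With the plain CPM ratio, chosen after seeing the data, the YBX2 values overlapped at the 4-cell stage, at -4.76 and -5.01 for controls against -4.12 and -4.80 for edited embryos. The averaged difference was then 0.65 and the exact permutation p-value 0.111. For the other 4 ratios the groups overlapped, or did not, at the same stages on the plain scale.

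The ratio of PATL2 to PATL1 was 1.001 and 1.25 for 4-cell controls against 1.92 and 2.77 for edited embryos on the log2 scale, which do not overlap, and 1.38 and 2.196 against 1.85 and 1.92 at the 8-cell stage, which do. CPEB1 went the other way against CPEB4, with 5.14 and 3.63 for 4-cell controls against 2.69 and 2.14 for edited embryos, and CPEB4 itself rose. The 8-cell ratios of CPEB1 to CPEB4 overlapped, at 3.29 and 3.76 against 3.25 and 3.46. LSM14B against LSM14A was lower in both edited libraries at the 4-cell stage, at -3.12 and -3.54 against -4.39 and -4.10, and overlapped at the 8-cell stage. EIF4E1B against EIF4E spread too widely among controls to rank the groups at the 4-cell stage, from -2.01 to -3.00 within the 4-cell controls, and the 8-cell edited libraries, at -1.92 and -1.98, were just above the 8-cell controls at -3.20 and -2.05. Averaged differences for these 4 ratios were 0.66, -1.07, -0.35 and 0.23, with exact permutation p-values of 0.167, 0.111, 0.222 and 0.611 (adjusted 0.278, 0.278, 0.278 and 0.611).

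**Figure D5:**
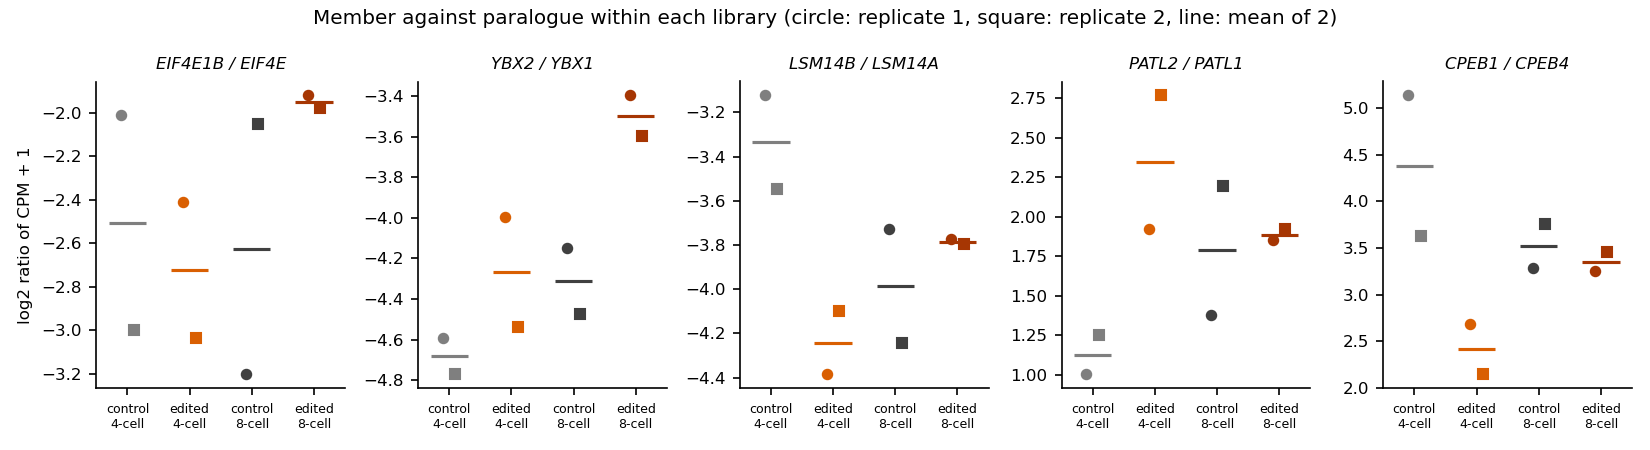
Log2 ratio of CPM + 1 of 5 members to a paralogue in each library (points; lines are means of 2), each panel with its own axis that does not start at 0. YBX2 to YBX1 is higher in both 8-cell edited libraries, and its 4-cell separation is not present without the added 1 CPM. CPEB1 to CPEB4 is lower in both 4-cell edited libraries.

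The other genes of the pathway were taken from 4 lists. Among P-body and decapping partners 14 of 15 could be tested. At the 4-cell stage 5 of them rose in edited embryos and 2 fell, with a list median of 0.21, where 18.9% of all tested genes rose and 25.8% fell. The exonuclease XRN1 stood at 49.3 and 78.5 CPM in controls and 114 and 173 CPM in edited embryos (log2 fold change 1.16, limma adjusted p-value 0.00248). The decapping enzyme DCP2 stood at 67.2 and 65.9 against 108 and 119 CPM, and LSM3 of the decapping-linked LSM ring at 207 and 142 against 336 and 277 CPM (log2 fold changes 0.76 and 0.83). The others called higher, LSM1 and the DCP2 activator DCP1A, are named because the count is small. LSM4 and LSM6 fell (log2 fold changes -0.90 and -1.04). None of the 14 rose at the 8-cell stage, where 1.08% of all tested genes rose and 14.5% fell, and LSM5 and LSM6 fell (log2 fold changes -1.14 and -1.36, limma adjusted p-values 0.0325 and 0.00554). LSM14A and PATL1, the broadly expressed paralogues of 2 members, had log2 fold changes of 0.33 and -0.30 at the 4-cell stage and did not pass.

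Of the 9 genes of cap binding, 2 rose and 2 fell at the 4-cell stage, and 1 fell at the 8-cell stage. Over all tested genes 18.9% rose and 25.8% fell at the first stage, and 14.5% fell at the second, so these counts are near the background. The 4E-binding protein EIF4EBP1, which blocks eIF4E when mTOR is inactive, had the largest change of the list. It stood at 117 and 84.8 CPM in 4-cell control and at 16.5 and 12.6 CPM in 4-cell edited libraries, and at 43.3 and 68.7 against 8.64 and 6.50 CPM at the 8-cell stage. The log2 fold changes were -2.70 and -2.71 (limma adjusted p-values 7.44e-06 and 2.26e-05). EIF4E itself stood at 852 and 1529 CPM in 4-cell control and at 1769.6 and 2301 CPM in 4-cell edited libraries (log2 fold change 0.82, limma adjusted p-value 0.0264), and EIF4E3 rose from a few CPM (log2 fold change 1.20). EIF4E2, the 4E homologue of a translational repressor complex, fell at the 4-cell stage (log2 fold change -0.81, limma adjusted p-value 0.00815).

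In the list for cytoplasmic polyadenylation and poly(A) binding 4 of 13 genes rose at the 4-cell stage and none fell, against 18.9% and 25.8% of all tested genes. None was called at the 8-cell stage by limma, against 1.08% higher and 14.5% lower. Before adjustment 2 had a limma p-value under 0.05, as had 3291 of the 12129 genes tested. CPEB4, a paralogue that takes over polyadenylation when CPEB1 is degraded during maturation, stood at 10.3 and 31.0 CPM in 4-cell control and at 76.5 and 83.9 CPM in 4-cell edited libraries (log2 fold change 2.09, limma adjusted p-value 0.000283). CPEB3 stood at 6.14 and 8.53 against 27.0 and 23.6 CPM (log2 fold change 1.67, limma adjusted p-value 0.000523), and CPSF2, a subunit of the cleavage and polyadenylation factor, at 54.1 and 74.7 against 119 and 133 CPM (log2 fold change 0.97). TENT2, the cytoplasmic poly(A) polymerase, was the other gene called and had a log2 fold change of 0.65. CPEB2 had 0.83 (limma adjusted p-value 0.181). CPEB1 had 0.13, and its difference from a paralogue was tested only for CPEB4, in the ratio above.

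Other RNA-binding regulators made a list with 20 genes measured and 18 tested, of which 8 rose and 2 fell at the 4-cell stage, against 18.9% and 25.8% of all tested genes. At the later stage 1 rose and 3 fell, against 1.08% and 14.5%. NANOS1, a translational repressor of the germ line, stood at 68.5 and 95.6 CPM in 4-cell controls and at 307 and 298 CPM in edited embryos (log2 fold change 1.89, limma adjusted p-value 2.89e-05). Its partner PUM2 stood at 21.4 and 29.6 against 62.5 and 61.2 CPM (log2 fold change 1.26). IGF2BP3, an mRNA-stabilising protein, rose at both stages, by 1.44 and 0.71. The Y-box protein YBX3 fell at both stages, from 65.6 and 49.5 to 11.5 and 10.6 CPM and from 16.7 and 20.6 to 2.87 and 2.94 CPM (log2 fold changes -2.27 and -2.33). YBX1 did not pass at either stage (log2 fold change -0.26 at both). CAPRIN1, a stress-granule protein, fell at both stages (log2 fold changes -1.49 and -1.54), and FMR1, a repressor bound to ribosomes, fell at the 8-cell stage (-1.88). Of the Y-box genes, the broadly expressed YBX3 was thus called lower at both stages. The germ-cell YBX2 did not pass at either, and its small 4-cell log2 fold change (0.16) changed sign in 4 of 14 alternatives.

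The 10 members did not share a single pattern over the 8 libraries. Of their 45 pairs 35 had a positive Pearson correlation of log2(CPM + 1), with a median of 0.45 and a range from -0.90 (LSM14B and PATL2) to 0.92 (CPEB1 and EIF4E1B). All points of a correlation share the libraries and their scaling. The share of positive pairs over all genes was not computed, so these values are descriptions only. Each r below is the highest of at least 7435 genes averaging 10 CPM or more over the 8 libraries. How high such a best r is for other genes was not computed. The gene most like EIF4E1B was IZUMO1R (r = 0.98), which encodes JUNO, the sperm receptor of the egg. That most like ZAR1L was TAC3 (r = 0.96), at 8.65 to 16.3 CPM in 6 libraries and at 38.7 and 44.9 CPM in the 8-cell edited ones. The gene most like PATL2 was DYNC2LI1 (r = 0.98), with its highest values, 249 and 229 CPM, in the 4-cell edited libraries. NCKAP5 was most like DAZL (r = 0.98). For ZAR1, YBX2, DDX6, LSM14B, CPEB1 and EIF4ENIF1 these were LOC100337390, CBFA2T2, FHAD1, NIPSNAP2, NEMP2 and EPB41L2, with r from 0.96 to 0.99.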

How the data were processed

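RNA was captured from pools of 5 embryos, amplified with a SMART-Seq kit and tagmented with Nextera XT, per the labels' protocols. The authors used Trim Galore 0.6.7, HISAT2 2.2.1 and featureCounts 2.0.1, per the submitters' processing notes. Genome build, annotation and strand setting are not given in the sources used here. The deposited values are CPM, although the table is named for raw counts. Their sums over all genes ran from 992528 to 1007020 per library, so the library totals are only nearly equal. Dividing each of the 8 columns used by the worth of 1 read gave whole reads (tolerance 0.05 reads) for 100% of its values above 0. The table has 4 further columns that match no sample given here, which were not used.

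limma 3.58.1 (R 4.3.3) with an intensity trend was fitted to log2(CPM + 1) with 1 mean per group and all 8 libraries. Each gene's variance was moderated toward that trend over all genes, so its p-value rests partly on the spread of other genes. Genes averaging under 1 CPM were left out, which kept 12129. A log2 fold change on this scale understates the change of weakly expressed genes. P-values were adjusted over all genes tested (Benjamini-Hochberg) and called under 0.05. The script was tested on simulated data. Alternatives were edgeR 4.0.16 (14629 genes) and DESeq2 1.42.0 on the recovered reads, other pseudocounts, no filter, other scalings, fewer libraries, a replicate block and a covariate. Reads without molecular identifiers are not independent molecules, so floors and counts cover counting error only. The members and gene lists were chosen with earlier results of these data known. Named genes are the 10 members, their paralogues, and up to 3 called genes per list, direction and stage by smallest p-value, in edited against control. No sequences are shown, because none was in the reference table used.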

Additional observations from a re-analysis of the deposited data

How the results depend on the processing

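Over the alternatives, 625 of 740 values for single members kept their direction and side of the threshold, 46 lost and 13 gained a call, and 56 changed sign. DAZL at the 4-cell stage kept its call under each alternative except the cumulus covariate. Of the members called, the 4-cell count of 5 became 3 when centred on oocyte markers (1 higher, 2 lower), 3 with only the libraries compared and 0 with the cumulus covariate, and 2 to 4 without a library. The 8-cell count of 1 became 0 when centred, 2 with only the libraries compared, 0 with the covariate, and 0 to 1 without a library. The count of 0 between stages in controls became 1 with a pseudocount of 5 CPM, DESeq2, TMM factors or 1 library left out (0 to 1). The count of 2 between stages in edited embryos became 0 with a pseudocount of 5 CPM, no filter, edgeR, TMM factors, the replicate block, the covariate or any library left out (0 to 0), and when centred 2 other members, PATL2 and DAZL, were called lower. The count for the difference between stages was 0 to 1 without a library. Centring lowered the share of higher genes among all called from 30.5% to 1.23% between stages in controls, from 28.0% to 1.32% in edited embryos, and from 49.4% to 38.9% for the difference between stages.

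With the replicate block, the members called were 4 at the 4-cell stage, 1 at the 8-cell stage, 0 between stages in controls, 0 in edited embryos and 0 for the difference. What a replicate number means is not in the labels, and the deviations of same-numbered libraries correlated at 0.11, -0.09, -0.30 and 0.02 in the 4 comparisons of groups. With the pairing of the control libraries crossed between stages, an alternative chosen after seeing the data, 1 member was called between stages in controls.

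Sign changes concerned members that had not passed. With edgeR they were PATL2 at the 8-cell stage (0.0018) and EIF4ENIF1 between stages in edited embryos (-0.0127), with DESeq2 these (0.0007 and -0.0208) and ZAR1 for the difference (0.0140), and with TMM factors PATL2 (0.0075), ZAR1 between stages in controls (0.0032) and EIF4ENIF1 (-0.0136). When centred they were, at the 4-cell stage, YBX2 (-0.29) and CPEB1 (-0.32), at the 8-cell stage ZAR1L (-0.12), DDX6 (-0.26), LSM14B (-0.45), CPEB1 (-0.0135) and EIF4ENIF1 (-0.39), between stages in controls ZAR1L (-0.32), YBX2 (-0.18), CPEB1 (-0.45), EIF4E1B (-0.10) and PATL2 (-0.0093), and in edited embryos DDX6 (-0.30), LSM14B (-0.33), CPEB1 (-0.14) and EIF4ENIF1 (-0.54). With the covariate they were YBX2 at the 4-cell stage (-0.54), LSM14B (-0.29), EIF4ENIF1 (-0.32), PATL2 (0.45) and DAZL (-0.40) at the 8-cell stage, ZAR1 (0.0320) and DAZL (-0.0701) between stages in controls, and EIF4ENIF1 in edited embryos (-0.0565). Centring shifts all genes of a comparison by the same amount, so the sign changes under it follow from that shift. The cause of the others was not tested.

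Without 1 library the ranges that crossed 0 were, at the 4-cell stage, YBX2 from -0.36 to 0.67 and CPEB1 from -0.0813 to 0.33. At the 8-cell stage they were LSM14B from -0.15 to 0.24, EIF4ENIF1 from -0.0571 to 0.27, PATL2 from -0.23 to 0.16 and DAZL from -0.0789 to 1.16. Between stages in controls they were ZAR1 from -0.31 to 0.25, CPEB1 from -0.0752 to 0.21 and DAZL from -0.0893 to 1.15. In edited embryos they were ZAR1 from -0.19 to 0.0760, DDX6 from -0.0339 to 0.58 and EIF4ENIF1 from -0.28 to 0.34. For the difference they were ZAR1 from -0.31 to 0.25, YBX2 from -0.12 to 0.91 and DDX6 from -0.58 to 0.0317, and the EIF4E1B to EIF4E ratio ran from -0.0587 to 0.52.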
